A study of Homo sapiens with 12 samples.

Results

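The replication-dependent histone genes encode the core histones H2A, H2B, H3 and H4, which form the nucleosome, and the linker histone H1, which binds the DNA between nucleosomes. Genes were taken by symbol: H1-, H2AC, H2BC, H3C or H4C followed by a number. Such a symbol was carried by 63 of the 16760 complete genes in the table of the 18E experiment and by 65 of 17442 in that of the siRNA experiment, which made 66 genes in either table and 62 in both. A gene was kept in a table where its level was at least 1 FPKM (fragments per kilobase of transcript, scaled to library size) in at least 2 of the 6 libraries. By this rule 40 genes were kept in the 18E table (4 H1, 11 H2A, 11 H2B, 6 H3 and 8 H4) and 36 in the siRNA table (3 H1, 8 H2A, 10 H2B, 9 H3 and 6 H4). Of these 32 were kept in both tables and 22 of the 66 in neither. The symbols also take in H1-10, a linker histone gene known to be expressed outside replication, which goes against the name of the group. H1-10 is described in a paragraph of its own and left out of the summed FPKM levels. It stays among the 40 and 36 genes in the counts, medians and tests.

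The histones of new chromatin are made in S phase, when a cell copies its DNA. Most messengers of replication-dependent histone genes end in a conserved stem-loop in place of a poly(A) tail: the stem-loop binding protein SLBP and the U7 snRNP direct the cut behind it, and the messenger is degraded when replication stops. Many of these genes also have a polyadenylation signal further downstream, and tailed transcripts are known from differentiating or resting cells and from tumours.

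The RNA came from NCI-H1975 and HCC827, established lines of EGFR-mutant non-small cell lung cancer. Cells of either line were exposed to DMSO (the solvent), to 2.5 µM 18E or to 5 µM 18E, and the time stated for 18E is 24 h. Other cells of either line received siCON (a control siRNA), siDYN-1 or siDYN-2, and the time stated for both siDYN reagents is 48 h. LIC1, which the title of the series mentions, is another name of DYNC1LI1, a light intermediate chain of the dynein motor. Each of the 12 combinations was a single library, so the 2 lines served as replicates and p-values measure only how far these libraries disagree. In the siDYN comparison siDYN-1 and siDYN-2 were fitted as a single treated group, set in each line against a single siCON library. The siRNAs thus also stood as replicates there, although they are different reagents. The labels do not say whether RNA was selected by its poly(A) tail, which decides how much of a stem-loop-ended messenger a library can hold.

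Of the 66 genes 62 were found in GENCODE 29 (GRCh38), all protein-coding: 51 on chromosome 6 between 25726777 and 27893843, 9 on chromosome 1 between 149782689 and 149887916, and H1-10 on chromosome 3 (129314771 to 129316277). H2AC18, H2AC19, H3C2 and H3C3 were not matched there. The annotated transcripts of 26 genes held the stem-loop, a stem of 6 base pairs around a loop of 4 bases. These 4 forms of it are shown because they were shared by 24 of the 26 genes; capitals mark the 16 bases of the stem-loop, and the sequences were read from the GENCODE 29 transcripts.
H2AC6: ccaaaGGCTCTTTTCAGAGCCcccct
H2BC5: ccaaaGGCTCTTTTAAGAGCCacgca
H4C8: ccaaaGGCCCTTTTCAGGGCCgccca
H4C14: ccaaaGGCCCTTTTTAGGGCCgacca
The form of H2AC6 was found in 13 genes of the H2A, H2B and H3 classes, that of H2BC5 in 4 genes (3 H2B and H3C8), that of H4C8 in 4 H4 genes and that of H4C14 in 3 H4 genes. H3C6 and H2AC11 each had a form of their own. For 29 of the 36 genes without a match the annotated models held coding sequence only, so the part of the messenger that would carry the stem-loop was not there to search.

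In 23 of the 26 genes with a stem-loop, an annotated transcript ran more than 50 bases past it or did not contain it. Of these, 22 genes were listed in the 18E table and 20 were kept, with a median of 3.47 FPKM (range 0.20 to 38.1, each gene averaged over 6 libraries). The 35 listed genes without a stem-loop in their models had a median of 0.58 FPKM (0.03 to 132), and 16 of them were kept. In the siRNA table the medians were 2.98 FPKM over 23 genes, 17 of them kept, and 0.51 FPKM over 35 genes, 14 of them kept. The ranges overlapped, and the highest gene of the second set in the 18E table was H2BC12, whose model held coding sequence only.

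RefSeq promoters (GRCh38.p14, 250 bases before to 50 bases after the start) were matched for 59 genes (the window listed for H3C4 was that of H2AC7 and was left out, and each window counted once) and searched on both strands for TATAAA (the TATA box), CCAAT (bound by NF-Y) and ATTTGCAT (the octamer bound by POU2F1). TATAAA was in 67.8% of the 59 promoters and in 11.6% of all 34943 promoters. CCAAT was in 84.7% against 34.6%, and in all H2A, H2B and H3 promoters but in 27.3% of the 11 H4 promoters. ATTTGCAT was in 40.7% against 1.8%, in 82.4% of H2B and 71.4% of H2A promoters, and in 0 of 7 H1, 0 of 10 H3 and 0 of 11 H4 promoters. Windows of neighbouring H2A and H2B genes on opposite strands can overlap. Those of H2AC11 (chr6:27132793-27133092) and H2BC11 (chr6:27132746-27133045) are an example. The same site can then count for both genes, so the shares of the H2A and H2B classes are not independent. The promoters of H2BC12, H2BC8 and H4C8 are shown because these genes had high levels or large differences with 18E and differ in these motifs; capitals mark matches on either strand, and neighbouring matches can overlap.
H2BC12, chr6:27146809-27147108, minus strand: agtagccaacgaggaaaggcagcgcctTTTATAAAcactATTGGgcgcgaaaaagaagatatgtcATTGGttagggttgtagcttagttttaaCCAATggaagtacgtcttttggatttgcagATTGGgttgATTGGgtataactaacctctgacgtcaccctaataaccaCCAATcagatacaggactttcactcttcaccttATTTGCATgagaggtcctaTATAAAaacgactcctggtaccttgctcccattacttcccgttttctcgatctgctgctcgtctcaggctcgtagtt
H2BC8, chr6:26216639-26216938, minus strand: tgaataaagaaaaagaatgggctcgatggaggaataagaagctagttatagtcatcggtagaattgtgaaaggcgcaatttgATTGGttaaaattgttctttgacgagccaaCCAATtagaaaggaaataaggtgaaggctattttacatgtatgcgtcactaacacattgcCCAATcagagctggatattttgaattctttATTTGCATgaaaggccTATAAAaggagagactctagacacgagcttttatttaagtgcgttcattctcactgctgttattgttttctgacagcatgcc
H4C8, chr6:26285485-26285784, minus strand: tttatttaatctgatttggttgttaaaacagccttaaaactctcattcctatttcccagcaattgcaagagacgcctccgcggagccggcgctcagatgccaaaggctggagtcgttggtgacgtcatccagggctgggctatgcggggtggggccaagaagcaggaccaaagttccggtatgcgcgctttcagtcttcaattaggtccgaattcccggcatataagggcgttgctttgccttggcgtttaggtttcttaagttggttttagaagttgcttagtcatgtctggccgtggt
The window of H4C8 held none of the 3 motifs, while those of H2BC12 and H2BC8 held all 3. A match describes the letters only.

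Depth is unknown because the files give FPKM without read totals. FPKM totals ran from 486409 to 685680, and genes listed at 0 from 534 to 2212 of a table, in every treated library fewer than in its control. With DMSO, 2.5 µM and 5 µM they numbered 1395, 1082 and 534 for HCC827 and 1077, 1051 and 898 for NCI-H1975. With siCON, siDYN-1 and siDYN-2 they numbered 2204, 2183 and 1570 for HCC827 and 2212, 2061 and 1519 for NCI-H1975. Their part in the histone results was not tested. With siDYN-1, DYNC1LI1 was at 21.5% of siCON in NCI-H1975 and 14.9% in HCC827; with siDYN-2 it was at 12.8% and 7.5%. Levels of epithelial markers differed widely. KRT7 stood at 1036 to 2444 FPKM, KRT8 at 481 to 2791, KRT18 at 735 to 3014 and KRT19 at 587 to 2215. EPCAM stood at 217 to 502 FPKM, CDH1 at 27.5 to 220, EGFR at 7.17 to 616 and NKX2-1 at 7.14 to 44.7. Of 12 measured markers of blood, endothelium and stroma the highest were CD68, a lysosomal protein (32.7 to 229 FPKM), and CD14 (at most 10.7 FPKM). The range of CD68 overlapped those of EPCAM, CDH1, EGFR and NKX2-1. PTPRC stayed at or below 0.83 and PECAM1 at or below 0.96 FPKM, and CDH5, DCN, LUM and PDGFRB were listed at 0 in some libraries.

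The summed level of histone genes was higher in every treated library of both experiments. The sums cover the kept core histone genes with H1-2 and, in the 18E table, H1-4. With DMSO, 2.5 µM and 5 µM these 38 genes summed to 410.4, 664 and 674 FPKM in NCI-H1975 and to 115, 344 and 708 FPKM in HCC827. HCC827 with DMSO stood lowest, and at 5 µM both lines were close together. With siCON, siDYN-1 and siDYN-2 the 34 genes of the siRNA table summed to 441, 678 and 1295 FPKM in NCI-H1975 and to 102, 304 and 476 FPKM in HCC827. With 18E the ratios to the control at 2.5 µM and 5 µM were 1.62 and 1.64 for NCI-H1975 and 2.99 and 6.16 for HCC827. With siDYN-1 and siDYN-2 they were 1.54 and 2.94 for NCI-H1975 and 2.98 and 4.66 for HCC827. These sums are of single libraries and carry no error; in bulk RNA, more cells that make histone RNA and more histone RNA per cell cannot be told apart. Without the 4 highest of these genes the 18E ratios were 1.37 and 1.44 for NCI-H1975 and 2.62 and 4.22 for HCC827, and the siRNA ratios 1.56 and 2.84 for NCI-H1975 and 1.98 and 2.55 for HCC827.

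**Figure D1:**
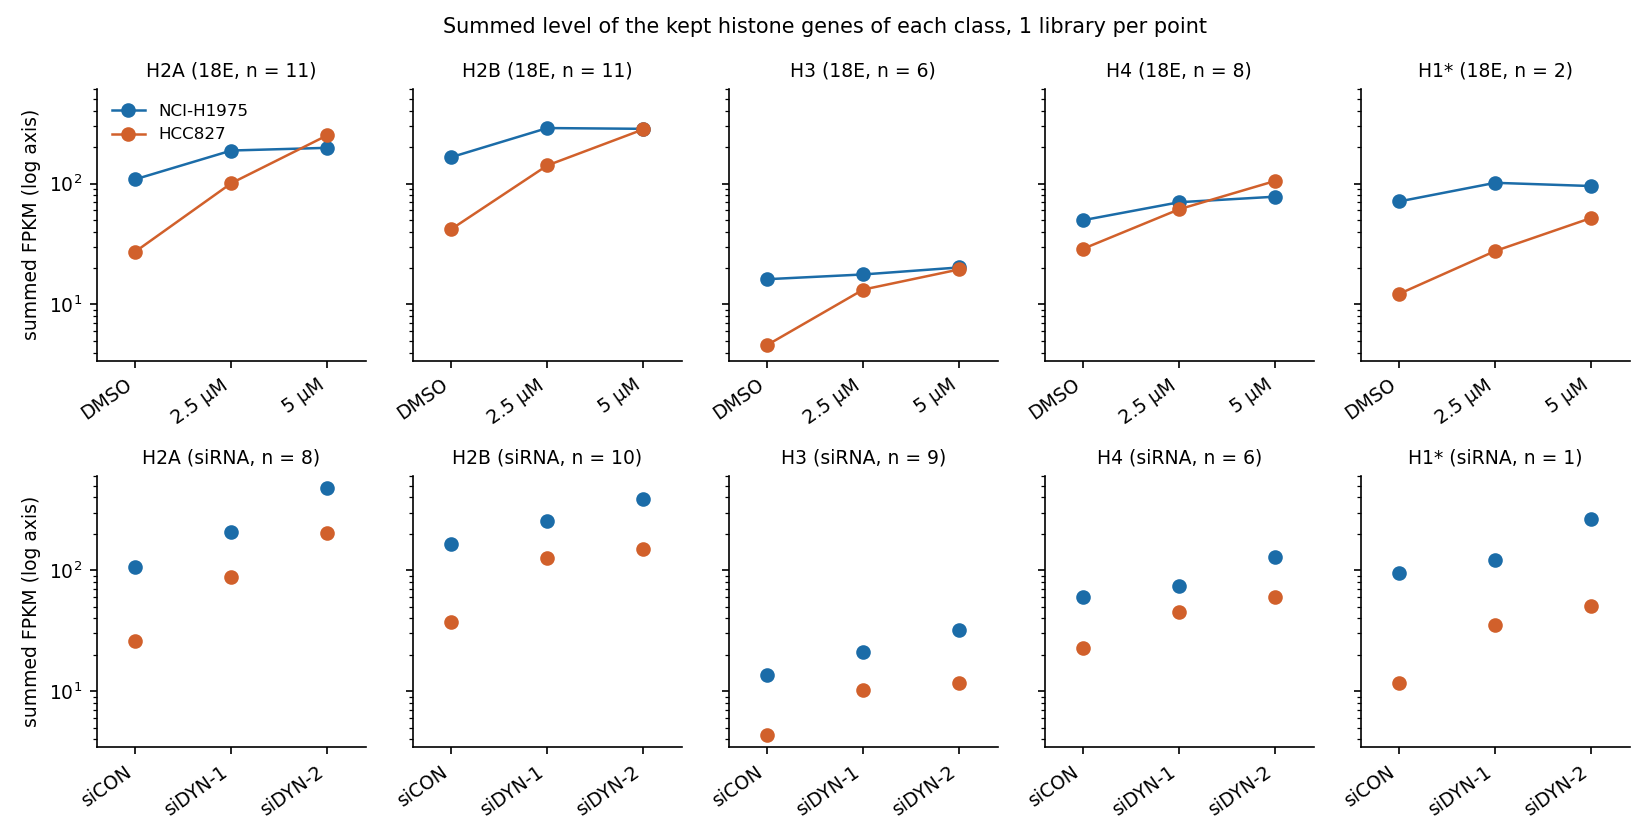
Summed FPKM (log axis) of the kept genes of each histone class in every library, 18E experiment above and siRNA experiment below, with 1 point per library (blue NCI-H1975, orange HCC827; lines join the doses of a cell line). H1* is H1-2 with H1-4 in the 18E experiment and H1-2 alone in the siRNA experiment; n is the number of genes summed, and every treated point lies above the control of its own line, for example 251 against 27.3 FPKM for H2A in HCC827 at 5 µM.

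Changes of single genes were taken on log2(FPKM + 1) against the control of the same line, a scale that understates the fold of low genes. At 5 µM the 40 kept genes had a median log2 change of 0.90 (all 11953 genes tested: -0.09), and 27 were higher in both lines (25.5% of all genes tested) and 3 lower in both (40.8%). At 2.5 µM the median was 0.64 (all genes 0.00), with 23 higher in both lines (32.2%) and 4 lower in both (31.6%). With siDYN the median of 36 genes was 0.68 (all 11718 genes tested: 0.01), with 21 higher in all 4 treated libraries (24.9%) and 0 lower in all 4 (25.6%). The share higher was above the background and the share lower below it in all 3 comparisons.

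The filter itself favours genes that are high with treatment: 12 of the 40 genes and 7 of the 36 were under 1 FPKM in both controls and passed through treated libraries only. In the 18E experiment these were H1-4, H2AC7, H2AC12, H2AC14, H2AC15, H2BC7, H2BC15, H2BC17, H3C6, H3C15, H4C3 and H4C9. In the siRNA experiment they were H2AC14, H2BC13, H3C1, H3C6, H3C12, H4C3 and H4C12. The counts above, and the counts and medians by class below, are therefore a description. Of the genes at 1 FPKM or more in all 6 libraries of a table, 11 of 15 were higher in both lines at 2.5 µM (33.3% of all such genes), 11 of 15 at 5 µM (25.5%) and 8 of 14 in all 4 siDYN libraries (25.8%), with medians of 0.79, 1.06 and 0.98. With no filter the medians over all listed genes were 0.23 (63 genes), 0.57 and 0.39 (65 genes). Just inside the filter was H2AC12, with 1.58 and 1.29 FPKM as its highest values in the 18E table, and just outside it H3C2, with 1.12 and 0.94 FPKM. The 22 genes kept in neither table reached 1 FPKM in at most 1 library of a table; H4C4, at 2.98 FPKM in HCC827 at 5 µM, was the highest of them.

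No histone gene passed an adjusted p under 0.05 with limma in any of the 6 comparisons made. The share of all genes that passed was 0.00837% (1 gene) at 5 µM and 0% in each of the other 5 (2.5 µM, siDYN, dose against dose, and line against line in either experiment). At an unadjusted p under 0.05, 22 histone genes were higher and 3 lower at 5 µM (10% and 16.8% of all genes), 13 higher and 0 lower at 2.5 µM (3.25% and 2.01%), and 19 higher and 0 lower with siDYN (12.6% and 13.4%). Some of the higher genes were under 1 FPKM in both controls and passed the filter through treated libraries only, which favours a higher value. They were H1-4, H2AC12, H2AC14, H2BC15, H2BC17 and H4C3 at 5 µM and H2BC15 and H2BC17 at 2.5 µM. With siDYN they were H2AC14, H2BC13 and H3C6, so these counts too are a description. The smallest adjusted p of a histone gene was 0.1 at 5 µM, 0.915 at 2.5 µM and 0.0784 with siDYN. At 5 µM the count of genes passing rested on single libraries: it was 28 of 40 without NCI-H1975 at 5 µM, where 37.8% of all genes passed, and 16 of 40 without NCI-H1975 DMSO, where 3.17% did. An arm left with 1 library is assumed in these fits to vary like the other groups.

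**Figure D2:**
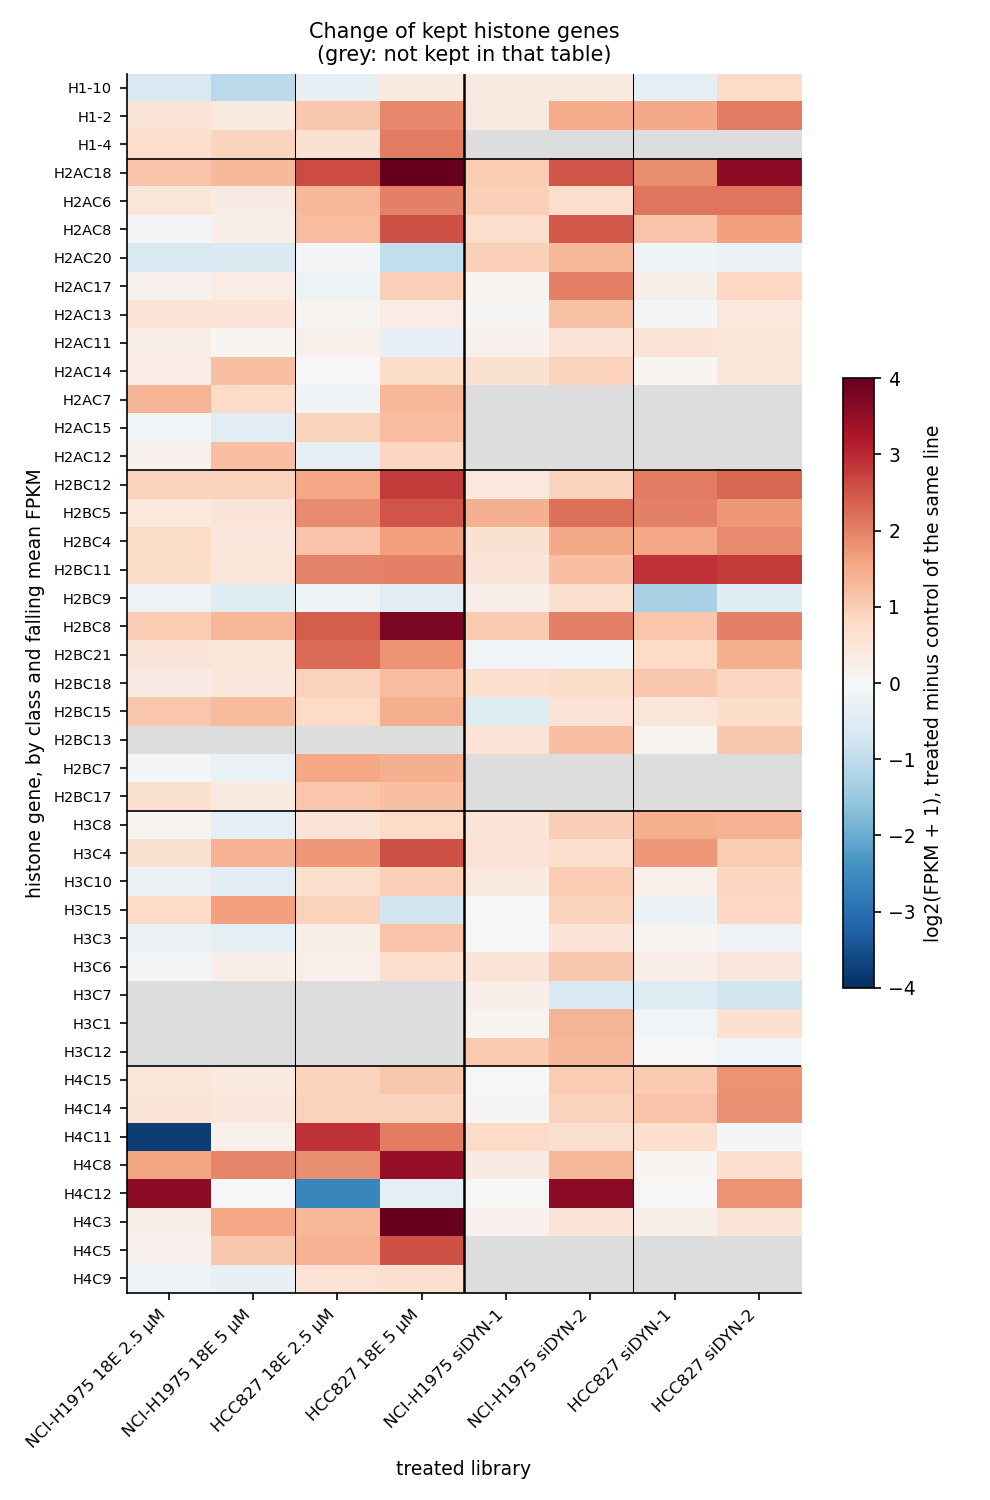
Change on log2(FPKM + 1) of kept histone genes in each of the 8 treated libraries against the control of its own line, red higher and blue lower (colours end at 4 and -4), genes by class and falling mean level, grey where a gene was not kept. H2AC18 and H2BC8 are red in all 8 columns, H2AC20 is blue or near 0 in all 18E columns, and H4C11 and H4C12 show opposite colours in the 2.5 µM columns.

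Of the 32 genes kept in both tables, 13 were higher in all 8 treated libraries, as were 7.2% of the 11449 genes tested in both. They came from every class: H2AC6 and H2AC18; H2BC4, H2BC5, H2BC8, H2BC11, H2BC12 and H2BC18; H3C4; H4C3, H4C8 and H4C14; and the linker histone gene H1-2. Their smallest change over the 8 libraries ran from 0.06 (H4C14) to 1.02 (H2BC8), and after H2BC8 H2AC18 had the next largest, 1.00. H4C3 was under 1 FPKM in every control and passed the filter through treated libraries only, which favours a higher value with treatment. Genes at least 2-fold higher in every treated library numbered 7 at 5 µM (1.07% of all genes), 3 at 2.5 µM (0.251%) and 2 with siDYN (0.23%). Of the 7 at 5 µM, H2BC15 and H4C3 passed the filter through treated libraries only. Only H2AC18 and H2BC8 of the 7 were at 1 FPKM or more in all 6 libraries. In any of the 3 comparisons 0 histone genes were 2-fold lower in every treated library. Of all genes tested, 61 of 11953 were so at 5 µM, 1 of 11953 at 2.5 µM and 4 of 11718 with siDYN, so nothing is read from this 0.

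The H2A genes, which encode the partner of H2B in the nucleosome's H2A-H2B dimer, were led by H2AC18 and H2AC6. H2AC18 stood at 49.7, 111 and 123 FPKM in NCI-H1975 with DMSO, 2.5 µM and 5 µM and at 9.17, 61.1 and 182 FPKM in HCC827. With siCON, siDYN-1 and siDYN-2 it stood at 62.1, 125 and 360.4 FPKM in NCI-H1975 and at 12.6, 48.3 and 161 FPKM in HCC827. Each treated library was above the control of its line, and HCC827 passed NCI-H1975 at 5 µM only. The log2 change was 1.88 ± 0.62 (SE) at 2.5 µM, 2.73 ± 0.62 at 5 µM (limma, adjusted p = 0.104) and 2.24 ± 0.58 with siDYN (adjusted p = 0.105). H2AC18 has a duplicate, H2AC19, which was listed in the siRNA table only and at 0 in all 6 libraries, so reads of both copies may be counted under H2AC18.

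H2AC6 stood at 38.7, 54.2 and 49.1 FPKM in NCI-H1975 and at 10.7, 28.7 and 46.9 FPKM in HCC827 over the 18E series (in the order DMSO, 2.5 µM, 5 µM, kept from here on), and at 28.1, 55.2 and 46.2 FPKM in NCI-H1975 and at 6.09, 30.5 and 30.1 FPKM in HCC827 over siCON, siDYN-1 and siDYN-2. Every treated library lay above its control, and in NCI-H1975 the highest values were those at 2.5 µM and with siDYN-1. The log2 change was 1.18 ± 0.38 at 5 µM and 1.48 ± 0.29 with siDYN. H2AC8 stood at 6.28, 6.06 and 7.53 FPKM in NCI-H1975 and at 0.89, 3.43 and 10.1 FPKM in HCC827 with 18E. Its levels with the siRNAs were 5.98, 10.4 and 37.2 FPKM for NCI-H1975 and 0.71, 2.74 and 4.30 FPKM for HCC827, so that in NCI-H1975 the 18E libraries differed little and siDYN-2 stood far above the rest. Its log2 change was 1.39 ± 0.51 at 5 µM and 1.48 ± 0.45 with siDYN. H2AC20 was lower than its control in every library given 18E, at 5.01, 2.96 and 3.01 FPKM in NCI-H1975 and at 2.03, 1.91 and 0.54 FPKM in HCC827 (-0.78 ± 0.26 at 5 µM, adjusted p = 0.144). The class had medians of 0.33 at 2.5 µM, 0.97 at 5 µM and 0.66 with siDYN, with 4 of 11, 8 of 11 and 6 of 8 genes higher in every treated library and H2AC20 the 1 gene lower in both lines at each dose. H2AC7, H2AC12, H2AC14 and H2AC15 were under 1 FPKM in both DMSO libraries and passed the filter through treated libraries only. The median at 5 µM is the value of H2AC14.

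The H2B class had the largest medians of the 5 classes at each dose and with siDYN: 0.96, 1.13 and 1.12. By the ratio of summed FPKM to the control it did not lead. The ratio of H2A was above that of H2B in every treated library except NCI-H1975 at 2.5 µM (1.73 against 1.74), for example 9.18 against 6.7 in HCC827 at 5 µM. H2BC12, the gene with the highest mean level in the 18E table, stood at 102, 194 and 194 FPKM in NCI-H1975 and at 26.9, 80.5 and 194 FPKM in HCC827 with 18E. Both lines stood near 194 FPKM at 5 µM, and HCC827 with DMSO stood lowest. With the siRNAs it stood at 108, 146 and 203 FPKM in NCI-H1975 and at 19.9, 88.3 and 102 FPKM in HCC827, where HCC827 stayed below NCI-H1975 in each treatment. Its log2 change was 1.23 ± 0.43, 1.86 ± 0.43 and 1.43 ± 0.34 (adjusted p = 0.915, 0.104 and 0.101) at 2.5 µM, at 5 µM and with siDYN.

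H2BC8 stood at 2.36, 5.82 and 7.42 FPKM in NCI-H1975 and at 1.39, 11.7 and 31.3 FPKM in HCC827 with 18E, and its log2 change of 2.54 ± 0.54 at 5 µM was the largest of the class. With the siRNAs it stood at 3.12, 7.58 and 15.8 FPKM in NCI-H1975 and at 0.75, 2.81 and 5.98 FPKM in HCC827 (1.55 ± 0.33), so that every treated library lay above the control of its line. H2BC5 stood at 24.1, 32.4 and 34.6 FPKM in NCI-H1975 and at 1.98, 9.94 and 16.1 FPKM in HCC827 with 18E. Its levels with the siRNAs were 20.5, 56.5 and 98.4 FPKM for NCI-H1975 and 1.22, 8.00 and 6.44 FPKM for HCC827. Its change with siDYN, 1.85 ± 0.23, had the smallest adjusted p of all histone genes, 0.0784, and was 1.42, 2.21, 2.02 and 1.74 in the 4 treated libraries. H2BC11 was low in the HCC827 controls: it stood at 8.78, 15.2 and 12.5 FPKM in NCI-H1975 and at 0.78, 6.00 and 6.13 FPKM in HCC827 with 18E. Its levels with the siRNAs were 6.34, 9.40 and 15.8 FPKM for NCI-H1975 and 0.66, 11.3 and 10.5 FPKM for HCC827.

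H2BC4 stood at 10.1, 17.6 and 14.3 FPKM in NCI-H1975 and at 2.24, 6.19 and 9.18 FPKM in HCC827 with 18E. Its levels with the siRNAs were 8.60, 13.6 and 26.6 FPKM for NCI-H1975 and 1.74, 7.02 and 9.22 FPKM for HCC827, with log2 changes of 1.06 ± 0.30 at 5 µM and 1.39 ± 0.29 with siDYN. In all, 9 of 11 H2B genes were higher in both lines at either dose and 7 of 10 in all 4 siDYN libraries. H2BC9 was lower than its control in every library given 18E: it stood at 9.18, 7.84 and 6.25 FPKM in NCI-H1975 and at 4.85, 4.17 and 3.26 FPKM in HCC827 (-0.47 ± 0.16 at 5 µM, adjusted p = 0.15). In the siRNA experiment H2BC9 stood at 11.1, 13.4 and 18.1 FPKM in NCI-H1975 and at 12.1, 4.35 and 8.49 FPKM in HCC827, higher in NCI-H1975 and lower in HCC827.

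H3 genes were the least abundant class, at 16.2, 17.7 and 20.2 FPKM summed over 6 genes in NCI-H1975 and at 4.62, 13.3 and 19.5 FPKM in HCC827 with 18E. Their medians were 0.28 and 0.41 at the doses and 0.57 with siDYN, with 3 of 6, 2 of 6 and 4 of 9 genes higher in every treated library and 0 lower. H3C4 stood at 1.16, 2.31 and 4.61 FPKM in NCI-H1975 and at 0.99, 5.55 and 10.7 FPKM in HCC827 with 18E (1.97 ± 0.32 at 5 µM, adjusted p = 0.1) and at 1.94, 3.38 and 3.77 FPKM in NCI-H1975 and at 0.30, 3.29 and 1.65 FPKM in HCC827 with the siRNAs (1.01 ± 0.25). H3C8 was lower at 5 µM in NCI-H1975 and higher in HCC827: it stood at 5.73, 6.22 and 4.28 FPKM in NCI-H1975 and at 0.68, 1.47 and 1.93 FPKM in HCC827. In the siRNA experiment H3C8 stood at 4.38, 6.72 and 9.63 FPKM in NCI-H1975 and at 0.82, 3.88 and 3.79 FPKM in HCC827, higher in all 4 treated libraries (1.08 ± 0.21, adjusted p = 0.0931). H3C10 and H3C15 stood at most at 6.40 FPKM in any library, and H3C15 shares its whole coding sequence with H3C14.

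Among H4 genes H4C8 and H4C3 had the largest differences with 18E. H4C8 stood at 2.68, 9.97 and 13.2 FPKM in NCI-H1975 and at 0.85, 5.66 and 20.4 FPKM in HCC827 with 18E, a log2 change of 1.71 ± 0.39 at 2.5 µM and 2.74 ± 0.39 at 5 µM, where it had the smallest unadjusted p of all histone genes (0.000529). With the siRNAs it stood at 2.84, 3.80 and 8.71 FPKM in NCI-H1975 and at 0.51, 0.63 and 1.40 FPKM in HCC827 (0.61 ± 0.31), with siDYN-1 close to siCON in both lines. H4C3 stood at 0.54, 0.80 and 3.54 FPKM in NCI-H1975 and at 0.14, 1.84 and 19.7 FPKM in HCC827 with 18E (2.87 ± 0.58 at 5 µM), with HCC827 at 5 µM far above the other libraries. With the siRNAs H4C3 ran from 0.51 to 1.55 FPKM. In both experiments H4C3 was under 1 FPKM in both controls and passed the filter through treated libraries only. The class had medians of 0.71, 0.93 and 0.79, with 5 of 8, 6 of 8 and 3 of 6 genes higher in every treated library and 0 lower.

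Several H4 genes share their coding sequence, so that reads could be split between them. H4C14 and H4C15 are identical over their 309 coding bases, and their sum was 33.1, 47.7 and 44.6 FPKM for NCI-H1975 and 20.9, 41.0 and 44.0 FPKM for HCC827 with 18E. With the siRNAs it was 40.2, 40.7 and 81.0 FPKM for NCI-H1975 and 11.5, 27.0 and 45.4 FPKM for HCC827. Every treated sum was above its control, by the least in NCI-H1975 with siDYN-1. H4C11 and H4C12 are identical too, and in 5 of the 6 libraries of the 18E experiment one of them was listed at 0 and the other was not: H4C11 at 12.8, 0 and 14.8 and H4C12 at 0, 10.9 and 0 FPKM in NCI-H1975. Summed, they stood at 12.8, 10.9 and 14.8 FPKM in NCI-H1975 and at 5.12, 6.38 and 6.80 FPKM in HCC827, so the single-gene differences of up to 3.78 on the log2 scale are not matched by the sums. These sums were chosen after the values were seen. Nearest copies of equal coding length had a median identity of 90.4% over 12 H2A, 93.0% over 14 H2B, 88.2% over 11 H3 and 89.0% over 13 H4 genes, and how the authors assigned shared reads is not given in the sources used here.

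**Figure D3:**
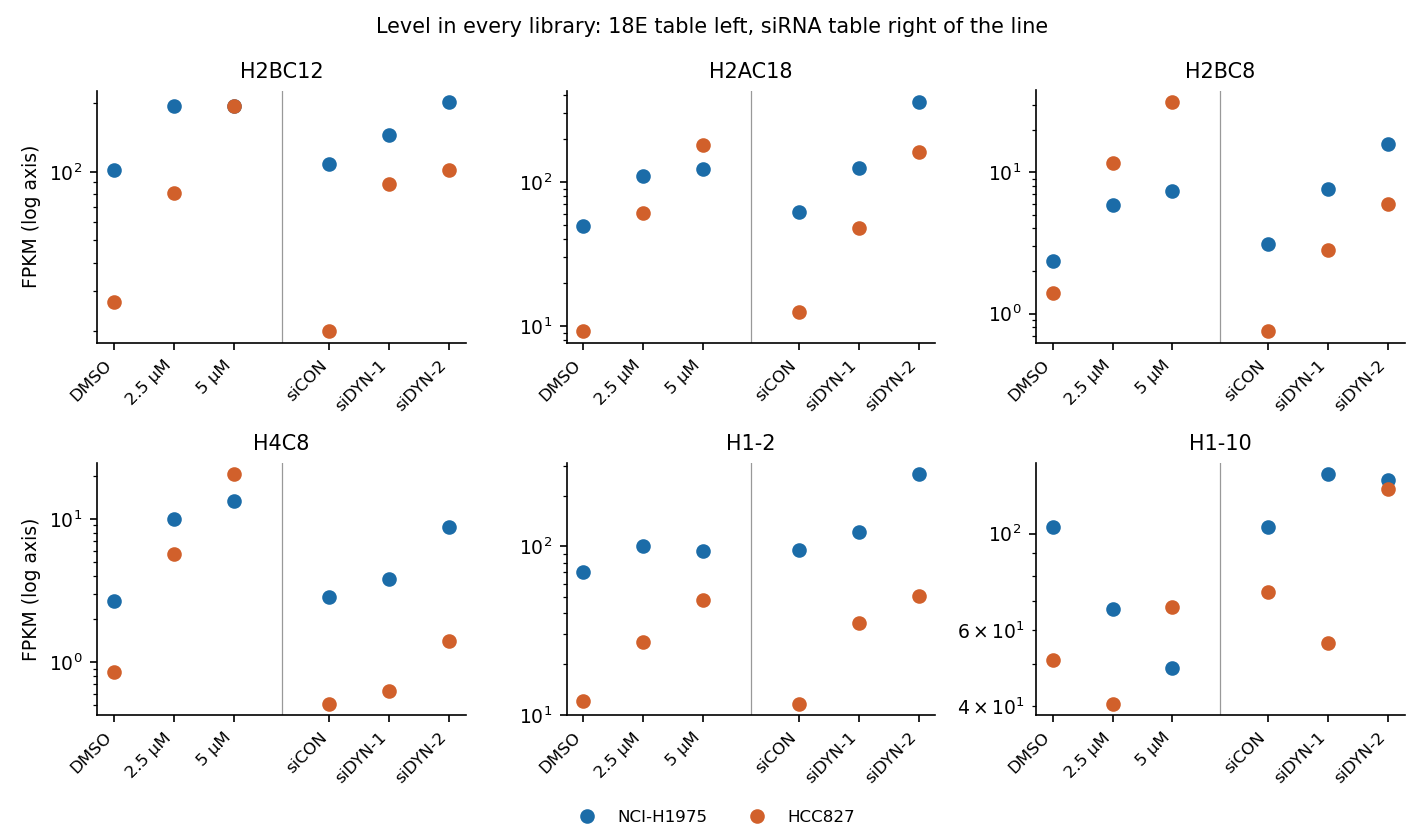
FPKM (log axis, own range in each panel) of 6 named genes in all 12 libraries, 1 point per library, blue NCI-H1975 and orange HCC827, the 18E experiment to the left of the line and the siRNA experiment to its right. H2BC12, H2AC18, H2BC8, H4C8 and H1-2 lie above their own control in every treated library, while H1-10 lies below it in 3 of the 4 libraries given 18E and above it in 3 of the 4 siDYN libraries.

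Of the linker histones, H1-2 was higher in all 8 treated libraries. It stood at 70.7, 100.05 and 93.7 FPKM in NCI-H1975 and at 12.1, 26.9 and 48.1 FPKM in HCC827 with 18E, and at 95.3, 122 and 267 FPKM in NCI-H1975 and at 11.6, 34.9 and 50.9 FPKM in HCC827 with the siRNAs. The log2 change was 1.15 ± 0.35 at 5 µM and 1.34 ± 0.36 with siDYN. H1-4, kept in the 18E table only, stood at 0.39, 1.28 and 1.58 FPKM in NCI-H1975 and at 0.14, 0.75 and 3.84 FPKM in HCC827 (1.49 ± 0.35 at 5 µM). H1-4 was under 1 FPKM in both DMSO libraries and passed the filter through treated libraries only.

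H1-10, a divergent H1, stood at 104, 67.0 and 48.9 FPKM in NCI-H1975 and at 51.1, 40.5 and 67.9 FPKM in HCC827 with 18E. Its levels with the siRNAs were 103, 137 and 133 FPKM for NCI-H1975 and 73.5, 56.1 and 127 FPKM for HCC827, and its log2 change was -0.33 ± 0.36 at 5 µM and 0.29 ± 0.30 with siDYN. It was lower at 5 µM in NCI-H1975 and higher in HCC827, and lower with siDYN-1 in HCC827 only. The experiments had separate controls and tables, and their difference was not tested.

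The direct test of 5 µM against 2.5 µM asked whether the response grew with the dose. At an unadjusted p under 0.05, 5 histone genes were higher at 5 µM (3.71% of all genes) and 1 was lower (8.05%), and none passed after adjustment (smallest adjusted p = 0.411). The 5 were H4C3 (2.10 ± 0.58), H2AC12 (1.11 ± 0.21), H4C5 (1.05 ± 0.37), H4C8 (1.03 ± 0.39) and H2AC14 (0.82 ± 0.20). Of these H2AC12, H2AC14 and H4C3 were under 1 FPKM in both DMSO libraries, and H2AC12 passed the filter through the 5 µM libraries only, which set its direction. Of the abundant genes H2BC12 differed by 0.63 ± 0.43 and H2AC18 by 0.85 ± 0.62. In NCI-H1975 the median change of the histone genes was 0.37 at 2.5 µM and 0.42 at 5 µM, and in HCC827 0.90 and 1.23. Without NCI-H1975 at 5 µM, 15 of 40 histone genes passed, and 29.1% of all genes.

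The control libraries of the lines stood at different levels. NCI-H1975 was above HCC827 in both control pairs (DMSO and siCON) for 28 of the 32 histone genes kept in both tables, against 50.8% of the 11449 genes, and at least 2-fold above it for 10 of 32, against 9.14%. The median difference was 0.98 with DMSO and 1.19 with siCON (all genes 0.14 and 0.14). H2BC5 differed by 3.08 and 3.28 on the log2 scale. With 18E the change was larger in HCC827 at an unadjusted p under 0.05 for 8 histone genes (0.82% of all genes) and smaller for 0. The share of all genes with a smaller change was not counted, so nothing is read from this 0. The 8 genes were H2BC7 (1.66 ± 0.31), H2BC11 (1.39 ± 0.38), H2BC5 (1.74 ± 0.48), H2AC15 (1.32 ± 0.37), H2BC21 (1.53 ± 0.43), H3C10, H4C9 and H2AC6. H2BC7, H2AC15 and H4C9 were under 1 FPKM in every NCI-H1975 library and in HCC827 DMSO and passed the filter through the treated HCC827 libraries only, which set their direction. With siDYN it was larger in HCC827 for 4 (0.845%) and smaller for 2 (0.674%): larger for H2BC11 (1.99 ± 0.47), H2BC12 (1.53 ± 0.38), H2AC6 (1.32 ± 0.32) and H2BC21 (1.22 ± 0.44), and smaller for H2AC20 and H3C12. H3C12 passed the filter through the treated NCI-H1975 libraries only, which set its direction. For this test the only replicates of a line were its 2 doses or its 2 siRNAs, and the adjusted p was 0.999 or 1 for every histone gene.

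With siDYN-2 the histone genes had a median change of 1.01 in NCI-H1975 and 0.86 in HCC827, and with siDYN-1 0.41 and 0.36. In NCI-H1975 34 of 36 genes were higher with siDYN-2 and 31 with siDYN-1 (52.4% and 47.9% of all genes), and in HCC827 30 and 26 (52.3% and 46.3%). At least 2-fold higher were 19 and 4 genes in NCI-H1975 (4.73% and 2.35% of all genes) and 17 and 14 in HCC827 (3.78% and 1.23%). Genes of all kinds at least 2-fold higher were more numerous with siDYN-2 than with siDYN-1 in both lines. DYNC1LI1 was lower with siDYN-2 than with siDYN-1 in both lines, and the difference between the siRNAs was not tested.

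Histone genes often lie head to head and share the DNA between their starts. Counting genes on opposite strands with starts within 1000 bases gave 10 pairs, 218 to 356 bases apart. H2BC17 was counted with both H2AC17 (313 bases) and H3C12 (356 bases), and the start of H2AC17 lies between those of H3C12 and H2BC17. Levels within a pair could be far apart: H2BC12 had a mean of 132 FPKM over the 6 libraries of the 18E table and its partner H2AC12, 330 bases away, 0.58 FPKM. Closer levels were seen for H2BC8 and H2AC8, 282 bases apart (10.0 and 5.71 FPKM), and for H2BC4 and H2AC6, 218 bases apart (9.95 and 38.1 FPKM). At 5 µM H2BC8 and H2AC8 had log2 changes of 2.54 ± 0.54 and 1.39 ± 0.51, and H2BC4 and H2AC6 of 1.06 ± 0.30 and 1.18 ± 0.38. H2BC11 and H2AC11, 291 bases apart, had 1.23 ± 0.38 and -0.13 ± 0.19, and H2BC21 and H2AC20, 322 bases apart, 1.13 ± 0.42 and -0.78 ± 0.26, so partners could also differ in sign.

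**Figure D4:**
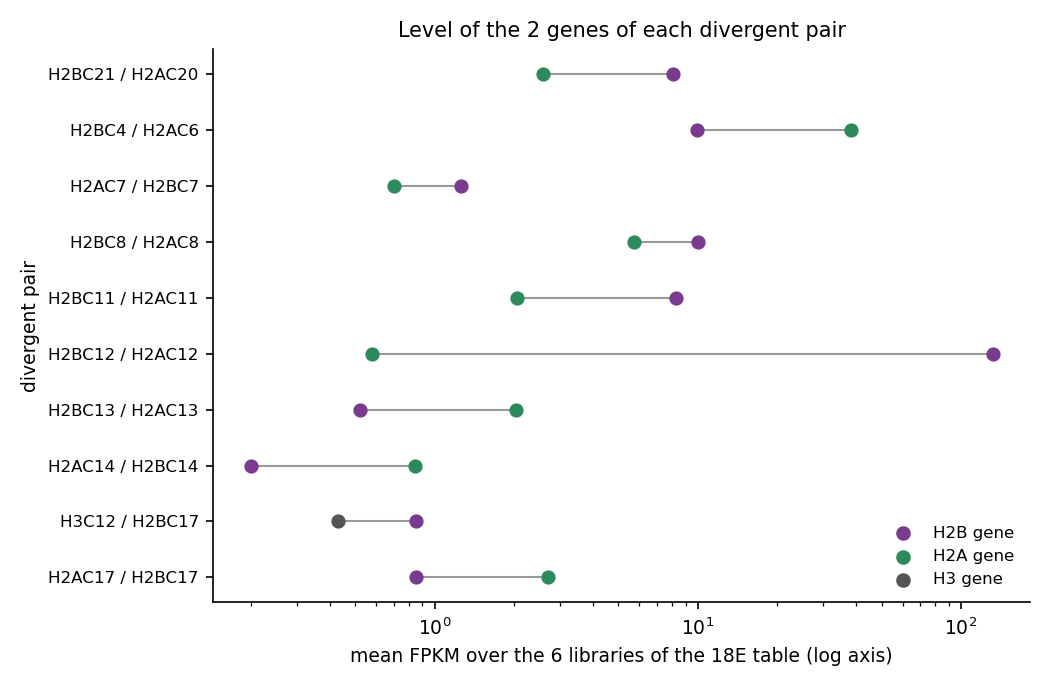
Mean FPKM over the 6 libraries of the 18E table (log axis) of both genes of each of the 10 head-to-head pairs, 1 row per pair, purple H2B, green H2A and grey H3, joined by a line. The longest line is that of H2BC12 at 132 FPKM and H2AC12 at 0.58 FPKM. H2BC17 has a row with H2AC17 and a row with H3C12.

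Genes that make and process histone messengers, with 4 other lists, are set against the shares of all genes higher and lower in every treated library, which were 25.5% and 40.8% at 5 µM, 32.2% and 31.6% at 2.5 µM, and 24.9% and 25.6% with siDYN. Medians over all genes were -0.09, 0.00 and 0.01. Of the list of 30 such genes, all tested, 6 were higher and 12 lower in both lines at 5 µM (median -0.06), 5 and 10 at 2.5 µM (-0.03), and 6 and 11 in all 4 siDYN libraries (-0.10). SLBP, which binds the stem-loop, stood at 70.5, 69.6 and 65.1 FPKM in NCI-H1975 and at 88.3, 76.3 and 89.8 FPKM in HCC827 with 18E, a log2 change of -0.04 ± 0.15 at 5 µM, and had -0.20 ± 0.15 with siDYN. NPAT, the coactivator of histone gene transcription, had -0.47 ± 0.18 and -0.58 ± 0.20, and CASP8AP2 (FLASH), a factor of the same histone bodies, -0.35 ± 0.17 and -0.32 ± 0.15. LSM11 and LSM10, proteins of the U7 snRNP, had -0.18 ± 0.18 and 0.19 ± 0.16 at 5 µM and 0.01 ± 0.15 and 0.60 ± 0.12 with siDYN. ZNF473, a zinc finger protein of the U7 complex, stood at 2.97, 2.77 and 5.5 FPKM in NCI-H1975 and at 2.39, 3.25 and 15.9 FPKM in HCC827 with 18E (1.52 ± 0.39 at 5 µM, adjusted p = 0.112) and had -0.02 ± 0.14 with siDYN. The 20 genes of histone messenger decay had medians of -0.14, -0.20 and -0.03 at 2.5 µM, at 5 µM and with siDYN.

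Histone variants made outside replication and histone chaperones were counted in the same way. Of 11 tested variant genes, a list that also holds H1-10, 0 were higher and 9 lower in both lines at 2.5 µM (median -0.29), and 1 and 7 at 5 µM (-0.33). CENPA, the centromeric H3, had -1.01 ± 0.22 at 5 µM and 0.00 ± 0.17 with siDYN, and H2AJ, an H2A variant, -0.75 ± 0.27 and 1.53 ± 0.25, at 132, 300.2 and 437 FPKM in NCI-H1975 and at 101, 235 and 406 FPKM in HCC827 over siCON, siDYN-1 and siDYN-2. The list of 10 tested variants had 1 higher and 2 lower in all 4 siDYN libraries (median 0.07). Of 24 chaperone genes 3 were higher and 17 lower in both lines at 5 µM (median -0.43), 1 and 18 at 2.5 µM (-0.18), and 4 and 12 in all 4 siDYN libraries (-0.17). CHAF1A, a subunit of the chaperone that loads H3 and H4 at replication forks, had -0.77 ± 0.18 at 5 µM, ASF1B -0.84 ± 0.20 and HJURP, the chaperone of CENPA, -0.85 ± 0.22.

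Among 28 genes of DNA replication and S phase 2 were higher and 22 lower in both lines at 5 µM (median -0.51), 2 and 17 at 2.5 µM (-0.21), and 2 and 9 in all 4 siDYN libraries (-0.14). Thymidylate synthase (TYMS) had -0.90 ± 0.18 at 5 µM and -0.51 ± 0.13 with siDYN, and cyclin A2 (CCNA2) -0.94 ± 0.22 and -0.55 ± 0.14. Cyclin E1 (CCNE1), which drives entry into S phase, was higher, at 1.26 ± 0.24 and 0.66 ± 0.19. In each of the 5 lists 0 genes passed an adjusted p under 0.05 with limma, and at an unadjusted p under 0.05 the S phase list had 1 higher and 16 lower at 5 µM, against 10% and 16.8% of all genes. The share of cells in S phase was not measured in these files, and its part in the histone levels was not tested.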

How the data were processed

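Per the labels' protocols, Trizol RNA went into Illumina TruSeq libraries. Values were deposited as FPKM by the authors, with a table for each experiment, per the file headers. The submitters' processing notes name Bowtie 0.12.2 and, with no role, the builds GRCh38.p12 and mm8. Not given in the sources used here are the quantifier, its annotation, strand use and how reads shared by gene copies were assigned. Columns were matched by name, with 0 left unmatched. Of 16800 and 17462 lines, 40 and 20 were incomplete and left out.

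From the deposited FPKM, log2(FPKM + 1) was computed. Genes at 1 FPKM or more in at least 2 of 6 libraries were tested with limma 3.58.1 in R 4.3.3 (trend, two-sided, Benjamini-Hochberg over all genes tested), with cell line as a block, since same-numbered samples are the same line. Residual degrees of freedom were 2 for 18E, 3 for siDYN and 2 for the difference between lines. The fit was tested on simulated data. The members, the gene lists and the tests were chosen with earlier results of these data known. Named genes were the 4 highest of each class, the 4 per direction with the largest smallest change in each of the 3 main comparisons, H1-10, SLBP, NPAT, CASP8AP2, LSM11 and ZNF473, and up to 4 genes per list with the largest change; others were named after their values were seen, and some genes that the rules select are not reported here. Alternatives were a pseudocount of 0.1, no filter, at least 1 FPKM in all 6 libraries, equal FPKM totals, quantile normalization, a fit with no variance trend, one with no line block, summed classes and each library left out.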

Additional observations from a re-analysis of the deposited data

Results flagged for a closer look

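In 8 histone genes every treated library of one line was above its control and every treated library of the other below it. The share of all genes with such opposite signs was not counted, so nothing is read from the number of 8. H3C10 with 18E stood at 5.30, 4.32 and 3.63 FPKM in NCI-H1975, lower at both doses, and at 1.05, 2.31 and 2.97 FPKM in HCC827, higher at both. The change was larger in HCC827 by 1.17 ± 0.38 on the log2 scale, which did not pass limma (unadjusted p = 0.0254, adjusted p = 0.999). H2AC20 with siDYN stood at 3.10, 6.85 and 9.27 FPKM in NCI-H1975 and at 4.73, 4.13 and 3.83 FPKM in HCC827, a difference of -1.33 ± 0.37 (HCC827 minus NCI-H1975, unadjusted p = 0.0126, adjusted p = 1). H2BC9 with siDYN stood at 11.1, 13.4 and 18.1 FPKM in NCI-H1975 and at 12.1, 4.35 and 8.49 FPKM in HCC827, a difference of -1.33 ± 0.57 (unadjusted p = 0.0613, adjusted p = 1). H2BC21 with siDYN was lower in NCI-H1975, at 4.59, 4.23 and 4.17 FPKM, and higher in HCC827, at 0.55, 1.71 and 3.16 FPKM, a difference of 1.22 ± 0.44 (unadjusted p = 0.0344, adjusted p = 1). With 18E, H2AC20 and H2BC9 were lower in both lines at both doses.

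The other 4 genes, all with 18E, were lower in NCI-H1975 and higher in HCC827, and each had an adjusted p of 0.999. H3C3 stood at 2.27, 1.80 and 1.49 FPKM in NCI-H1975 and at 0.35, 0.58 and 1.98 FPKM in HCC827, a difference of 0.99 ± 0.58 (unadjusted p = 0.142). The differences were 1.66 ± 0.31 for H2BC7 (unadjusted p = 0.00264), 1.32 ± 0.37 for H2AC15 (0.0145) and 0.83 ± 0.28 for H4C9 (0.0296). These 3 genes were under 1 FPKM in every NCI-H1975 library and passed the filter through the treated HCC827 libraries only, so that their increase in HCC827 was set by the filter.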

How the results depend on the processing

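The medians over the histone genes stayed above 0 under every alternative run. They moved by more than the spread between lines with no filter (0.23 at 2.5 µM and 0.39 with siDYN), and for siDYN with at least 1 FPKM in all 6 libraries (0.98), a pseudocount of 0.1 (1.08) and summed classes (1.02); leaving out a library gave 0.27 to 0.95, 0.54 to 1.08 and 0.51 to 0.83 at 2.5 µM, at 5 µM and with siDYN. Equal FPKM totals moved the median of all genes at 5 µM from -0.09 to -0.19 and that of the histone genes to 0.78. Without the replicate block by line, 0 histone genes passed in each comparison, as with it; the difference between lines needs the line term, and could not be fitted without a control library. The count of genes passing was 1 for siDYN with at least 1 FPKM in all 6 libraries, and ranged over left-out libraries from 0 to 5 at 2.5 µM (5 without NCI-H1975 DMSO, where 24 of 11953 genes passed), 0 to 28 at 5 µM (28 without NCI-H1975 at 5 µM, with 4520 genes in all), 0 to 2 for siDYN (2 without HCC827 siDYN-1, where 128 of 11718 genes passed) and 0 to 15 between the doses (15 without NCI-H1975 at 5 µM, with 3478 genes in all). Counts of at least 2-fold higher genes were 7, 11 and 3 with a pseudocount of 0.1 at 2.5 µM, at 5 µM and with siDYN, 2 at 5 µM and 1 with siDYN with at least 1 FPKM in all 6 libraries, and 1 with siDYN with equal totals. Over left-out libraries they ranged from 6 to 17, 10 to 24 and 2 to 13, where fewer libraries have to pass. The 17 and 24 came without either NCI-H1975 library of the contrast, and the 13 without NCI-H1975 siCON. The 6, 17, 10 and 24 stood beside 0.678%, 1.24%, 1.79% and 7.4% of all genes. For the other counts of 2-fold higher genes the shares of all genes are not given here, so nothing is read from them. The 1 gene passing for siDYN with at least 1 FPKM in all 6 libraries was among 20 of 9741 genes. The cause of the other moves was not tested.

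Of named genes 36 values changed sign. With a pseudocount of 0.1 H3C15 was at -0.33 at 5 µM, and with equal totals LSM11 was at -0.06 with siDYN. Over left-out libraries the ranges at 2.5 µM were -0.31 to 1.49 for H2AC8, -0.70 to 0.04 for H2AC20, -0.07 to 0.73 for H3C8, -0.36 to 0.81 for H3C10, -3.32 to 2.42 for H4C11, -0.16 to 1.70 for H4C3, -0.24 to 0.02 for SLBP, -0.17 to 0.05 for LSM11, -0.38 to 0.63 for ZNF473, -0.53 to 0.02 for SNRPG, -0.73 to 0.06 for H3-5 and -1.21 to 0.10 for CCNE2. At 5 µM they were -1.0 to 0.33 for H1-10, -0.24 to 0.69 for H3C8, -0.33 to 0.84 for H3C10, -0.79 to 1.69 for H3C15, -1.0 to 3.26 for H4C11, -0.16 to 0.07 for SLBP and -0.05 to 0.98 for TUT7. With siDYN they were -0.20 to 1.13 for H2AC20, -0.88 to 0.45 for H2BC9, -0.16 to 0.18 for LSM11 and -0.06 to 0.03 for ZNF473. Read totals are not in the files, so the depth behind low values is unknown.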
